A study of Mus musculus with 34 samples.

Results

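The 50 genes described here encode the machinery of mitosis: the cyclin-dependent kinase that starts it, the kinases, checkpoint and motor proteins that run it, and the proteins that end it with the division of the cell. They were taken by gene name, each read by its brightest probe, from a microarray with 21842 genes that passed a filter on dim probes, and all 50 were measured and passed that filter. Livers and liver tumors of mice were compared in 10 groups. They were tumors carrying a c-Myc transgene (7 tumors), a TGFα transgene (3) or both (3), and livers of the same 3 transgenic types (3 livers each per time) in which dox, given for 4 or 12 weeks, had switched the transgene off. The last group was 3 livers of control mice with no transgene and no dox. The tumors, labelled as coming from individual mice, were at 0 weeks of dox, with the transgene on, so the groups off for 4 and 12 weeks differ from them in the dox as well as in the transgene. Age, sex, the promoter that drives each transgene and the strain of the sampled mice are not stated in the labels used here, and a liver after dox is not paired with a tumor of its own.

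A liver cell of an adult mouse rarely divides, and its mitotic genes are nearly silent. Most of them share a programme that is repressed in resting cells by the DREAM complex and opened late in the cell cycle by the MYBL2 and FOXM1 factors, which reach promoters through a cell cycle homology element (CHR) and often through CCAAT boxes bound by NF-Y. CDK1 with cyclins A and B starts mitosis, Polo and Aurora kinases build the spindle, kinetochores tie chromosomes to it, and the spindle checkpoint holds back the anaphase promoting complex until every chromosome is attached. That complex, with its activator CDC20, then has securin and cyclin B destroyed, separase cuts cohesin, and the motor and ring proteins of the spindle midzone split the cell. In a tissue, a higher level of these messengers can come from more dividing cells or from more messenger in each, and bulk RNA cannot tell these apart.

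Each array carried the RNA of 1 liver or tumor in Cy3 and a pool of livers of C57BL/6 reference mice of both sexes in Cy5, and every value below is the log2 ratio of sample over that pool, or a difference between groups in it. Between 43.7 and 71.8% of probes were well above background in Cy3 over the 34 arrays. Of the 50 genes, 47 to 50 were well above background in each of the Myc and TGFα/Myc tumors except Myc tumor 5 (35) and TGFα/Myc tumor 2 (44), against 30 to 44 in controls, so that low levels in resting liver are measured less firmly than levels in tumors. No member was saturated on any array. 3 arrays from 1 slide (TGFα tumors 2 and 3, TGFα off 4 weeks replicate 1) were set apart, because their reference channel had an unlike profile. In that channel hepatocyte plasma protein genes ranked at a median percentile of 69.7, 51.5 and 53 among all genes on those arrays, against 98.9 or more on the other 31. Intestine genes ranked there at 99.6, 99.4 and 99.6, against 19.9 to 51.3 on the other 31. Among the fitted arrays, replicate 3 of the livers off both transgenes for 4 weeks stood apart too. Its highest correlation with any other array over all genes was 0.22, against 0.71 to 0.93 for the other 30. The transgene gave a check of the labels. 1 of the Myc probes stood at log2 ratios of 5.16 to 6.25 in Myc tumors 2, 3, 4, 6 and 7, 2.50 in Myc tumor 1, where it was saturated, 1.71 in Myc tumor 5, 4.85, 5.48 and 2.85 in the TGFα/Myc tumors, and 0.13, 0.17 and -1.07 in controls. It stood at 3.28, saturated, in TGFα tumor 1, whose label names no Myc transgene. The other 2 Myc probes differed from it. 1 stood at 2.69 to 4.66 in Myc tumors other than tumor 5, at 0.44 in tumor 5, at 2.60, 3.03 and 0.94 in the TGFα/Myc tumors, at 3.55 in TGFα tumor 1 and at -0.11, 0.51 and 0.43 in controls, so that tumor 5 lay within the controls. The last stood at -0.98 to -0.32 in the 6 other Myc tumors, at 0.86 in tumor 5, at 0.08, 0.46 and 0.58 in the TGFα/Myc tumors, at 1.37 in TGFα tumor 1 and at 0.13, -0.22 and -0.54 in controls. The array of TGFα tumor 1 is called the array labelled TGFα tumor 1 below, and no direction for TGFα is drawn from it.

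**Figure D1:**
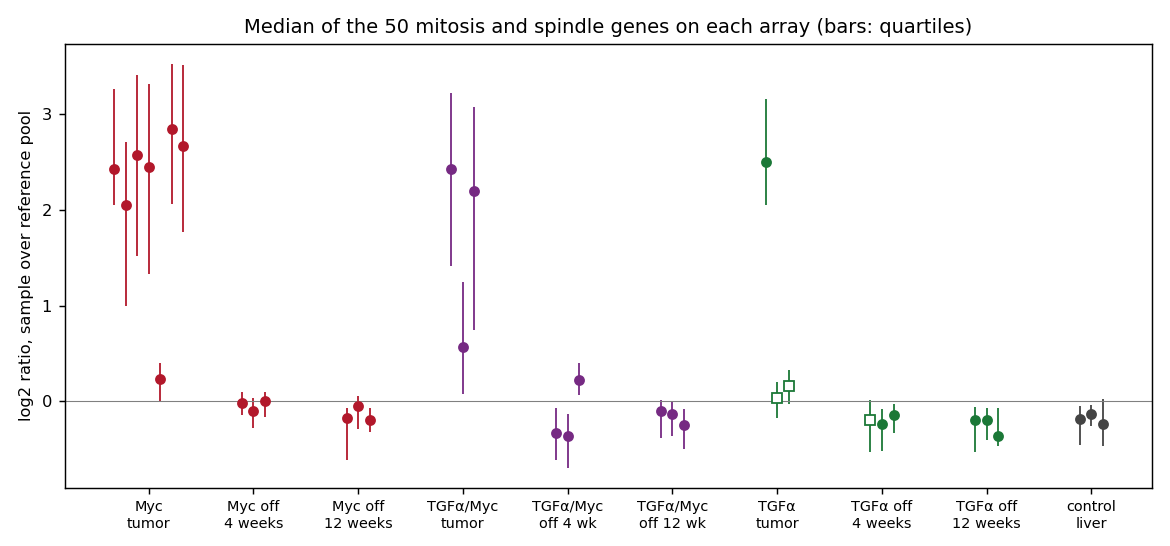
Median log2 ratio (sample over reference pool) of the 50 genes on each of the 34 arrays, with bars from the lower to the upper quartile of the genes. Open squares are the 3 arrays set apart. The Myc tumors lie at 2.05 to 2.84 except tumor 5 at 0.23, and all fitted livers with the transgene off lie between -0.36 and 0.22, beside controls at -0.24 to -0.14.

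The promoters of the genes shared short sequence elements. RefSeq starts on GRCm38.p6 were matched for 42 of the 50 genes, and each window ran from 250 bases before to 50 bases after the first listed start. The CHR, searched as TTTGAA or TTCGAA on both strands, was in 31 of 42 windows (73.8%), against 19.4% of the 27025 windows of all genes. A CCAAT box (CCAAT, both strands) was in 32 of 42 (76.2%), against 37.9% of all. Both together were in 28 of 42 (66.7%), against 7.7% of all, and a CHR with 2 or more CCAAT boxes was in 19 of 42 (45.2%), against 2.43%. The E-box CACGTG, the core site of MYC with its partner MAX, was in 3 of 42 (7.14%), a share close to that of all windows (7.24%). The shares describe letters in these windows and were not tested. 5 windows are printed for genes that the values below turn on, in the direction of transcription, with CHR and CCAAT letters in capitals. They belong to Cdc20 (chr4:118437294-118437593, minus strand), with the largest difference in TGFα/Myc tumors, to Ccnb2 (chr9:70421505-70421804, minus) and Cdk1 (chr10:69352863-69353162, minus), to Birc5 (chr11:117848987-117849286, plus), with the largest difference in Myc tumors, and to Bub3 (chr7:131560120-131560419, plus), with one of the smallest.
Cdc20: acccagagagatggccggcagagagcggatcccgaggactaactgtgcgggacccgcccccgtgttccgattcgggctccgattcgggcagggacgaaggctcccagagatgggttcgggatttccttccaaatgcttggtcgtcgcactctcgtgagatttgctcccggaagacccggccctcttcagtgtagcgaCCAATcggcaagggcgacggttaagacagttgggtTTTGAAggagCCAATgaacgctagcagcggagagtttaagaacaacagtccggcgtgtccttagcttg
Ccnb2: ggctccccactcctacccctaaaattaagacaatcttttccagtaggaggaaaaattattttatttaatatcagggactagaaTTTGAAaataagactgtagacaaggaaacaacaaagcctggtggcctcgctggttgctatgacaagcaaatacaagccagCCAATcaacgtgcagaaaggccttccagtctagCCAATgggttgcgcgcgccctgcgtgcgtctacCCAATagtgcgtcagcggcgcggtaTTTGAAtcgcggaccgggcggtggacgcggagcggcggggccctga
Cdk1: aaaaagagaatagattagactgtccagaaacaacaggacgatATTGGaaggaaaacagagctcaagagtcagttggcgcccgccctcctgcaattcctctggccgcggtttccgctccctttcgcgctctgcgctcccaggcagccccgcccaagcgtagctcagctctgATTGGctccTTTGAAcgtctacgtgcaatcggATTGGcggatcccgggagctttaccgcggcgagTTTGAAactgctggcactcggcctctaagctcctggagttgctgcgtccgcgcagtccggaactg
Birc5: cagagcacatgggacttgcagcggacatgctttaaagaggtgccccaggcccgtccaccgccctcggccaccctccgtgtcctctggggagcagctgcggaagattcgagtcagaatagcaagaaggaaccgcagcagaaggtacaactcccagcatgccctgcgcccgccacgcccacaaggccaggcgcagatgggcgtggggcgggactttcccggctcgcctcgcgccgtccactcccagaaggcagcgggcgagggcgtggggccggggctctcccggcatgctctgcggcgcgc
Bub3: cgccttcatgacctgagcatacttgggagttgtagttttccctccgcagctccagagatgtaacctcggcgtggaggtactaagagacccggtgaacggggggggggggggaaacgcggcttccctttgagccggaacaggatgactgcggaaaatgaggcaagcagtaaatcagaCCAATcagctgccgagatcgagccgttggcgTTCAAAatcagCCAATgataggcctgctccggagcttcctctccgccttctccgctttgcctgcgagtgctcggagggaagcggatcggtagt
Counted from the start, Cdc20 had its CHR at -18 with CCAAT boxes at -53 and -8, Ccnb2 had CHRs at -167 and 5 with CCAAT boxes at -87, -54 and -21, and Cdk1 had CHRs at -71 and -15 with CCAAT boxes, on the opposite strand, at -208, -80 and -48. Bub3 had a CHR at -43 between CCAAT boxes at -74 and -32. The Birc5 window held neither letter string.

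In Myc tumors 48 of the 50 genes were higher than in control livers (limma, Benjamini-Hochberg adjusted p under 0.05), and none was lower, where 19.7% of all genes tested were called higher. The median difference over the 50 was 2.36 on the log2 scale, against -0.01 over all genes, and 45 of the called genes differed by at least 1 log2 unit. 5 genes (Ccnb1, Aurkb, Bub1b, Kif11 and Anln) were not well above background in any control, and Anln, Bub1b, Kif11 and Cdc25c passed the filter of 3 arrays only through tumors, where they are high, so that their calls add nothing to the 48. In 38 of the 50 every Myc tumor stood above every control, where 12.7% of all genes did. Myc tumor 5 was the exception among the tumors. Its median over the genes was 0.23, against 2.43, 2.05, 2.58, 2.45, 2.84 and 2.66 in tumors 1, 2, 3, 4, 6 and 7 and -0.18, -0.14 and -0.24 in controls, it was the lowest Myc tumor for 48 of the 50 genes, and it still exceeded every control for 38. Without it, 48 genes were called, and 48 were with Myc tumors 3 and 4 averaged, which carry the same animal number in their names and may come from 1 animal. Myc tumors 2 to 7 were scanned on a second scanner on days with no other group. Tumor 1, scanned on the day of control 2, exceeded that control by at least 1 log2 unit for 49 of the 50 genes. The median difference was 2.66, against -0.01 over all genes. A fit with scan day as a block called 37, with no share of all genes given for that fit.

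**Figure D2:**
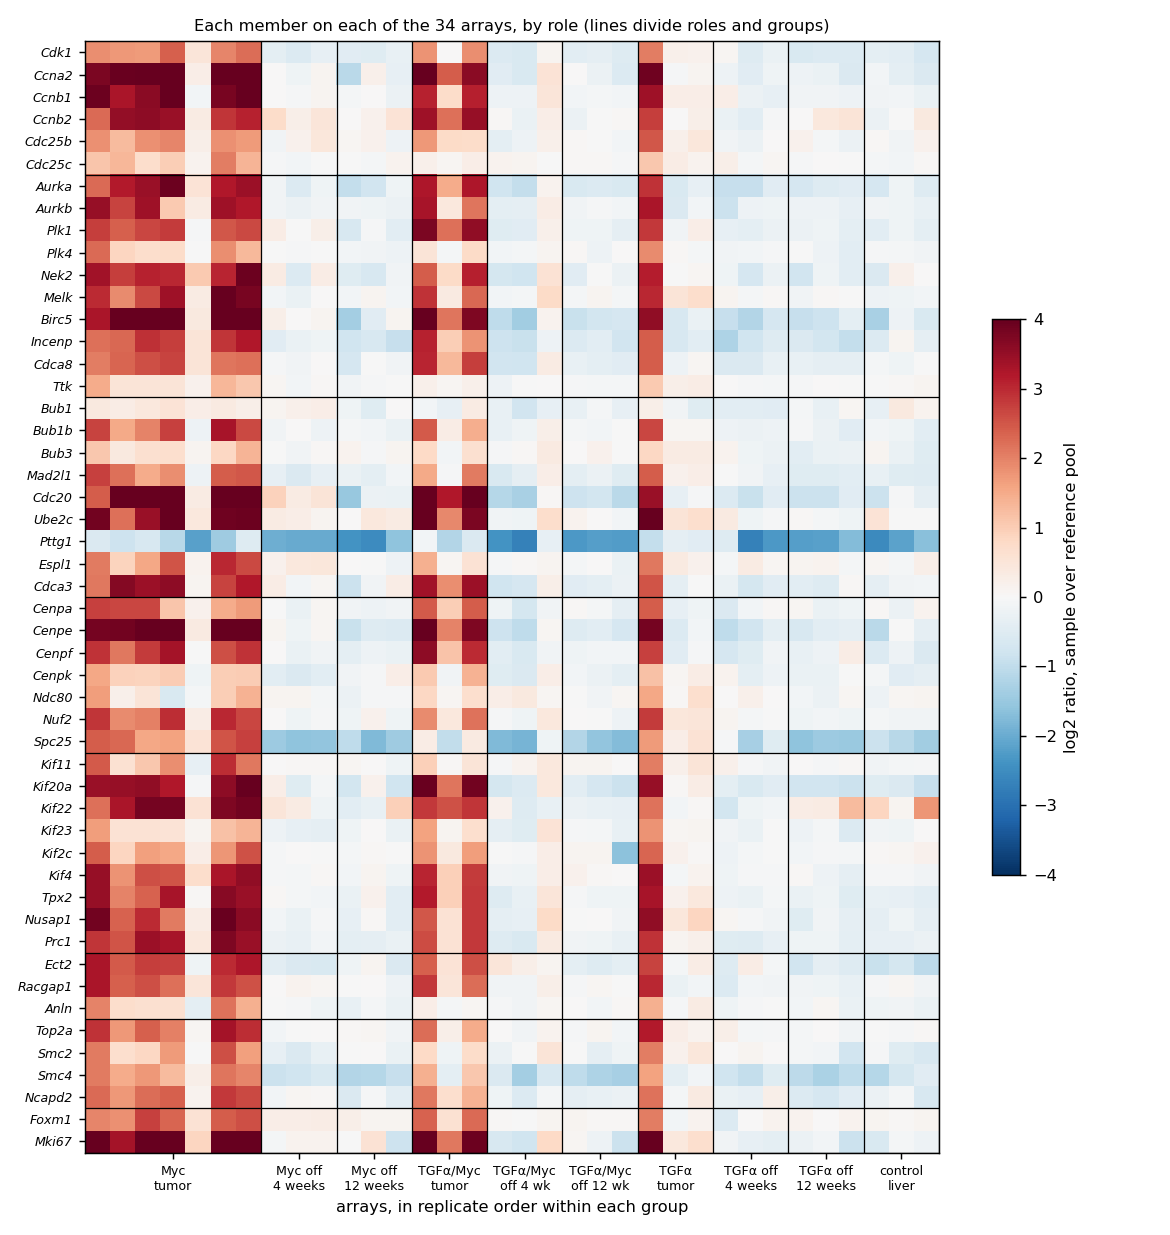
Log2 ratio (sample over reference pool, colour scale from -4 to 4) of each of the 50 genes in rows, ordered by role, on the 34 arrays in columns, ordered by group and replicate. The tumor columns are red in nearly all rows except Myc tumor 5, TGFα/Myc tumor 2 and the TGFα tumors 2 and 3, and Pttg1 is blue, below the reference pool, in all 31 arrays that were fitted.

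Among the cyclins, CDK1 and its phosphatases, all 6 genes rose in Myc tumors, by 1.13 to 3.99. Cdk1, the kinase of mitotic entry, had a lowest value of 0.48, a median of 1.85 and a highest of 2.39 in the 7 Myc tumors, against -0.39, -0.41 and -0.68 in controls. Its groups did not overlap, and the difference was 2.26 ± 0.32 (SE, adjusted p = 1.11e-05). Cyclin A2 (Ccna2), which partners CDK1 and CDK2 from S phase on, had 0.27, 4.06 and 4.54 as lowest, median and highest in Myc tumors, against -0.12, -0.41 and -0.57 in controls. 6 tumors lay within 3.77 to 4.54 and tumor 5 near the controls, and the difference was 3.99 ± 0.61 (adjusted p = 2.4e-05). Cyclin B2 (Ccnb2) had 0.33, 3.08 and 3.59 in Myc tumors, against -0.24, 0.00 and 0.38 in controls. Tumor 5 fell below control 3, so that its groups overlapped, with a difference of 2.68 ± 0.45 (adjusted p = 6.77e-05). Cyclin B1 (Ccnb1), the main partner of CDK1, was not well above background in any control, with a measured difference of 3.57 ± 0.63 in log2 ratio (adjusted p = 0.000128). On the signal of the sample channel alone, another scale, it was at least 12.2-fold higher in Myc tumors, a bound set by the lowest signals that were well above background on the control arrays. The phosphatases Cdc25b and Cdc25c, which switch CDK1 on, differed least, by 1.50 and 1.13.

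All 10 genes of the mitotic kinases and the chromosomal passenger complex rose as well, by 0.74 for the checkpoint kinase Ttk to 4.56 for Birc5. Survivin (Birc5), the passenger subunit that docks Aurora B at centromeres, had 0.38, 4.59 and 4.97 in Myc tumors as lowest, median and highest, against -1.30, -0.20 and -0.60 in controls. Those values make it the member with the widest gap, 4.56 ± 0.67 (adjusted p = 1.53e-05), with no overlap. Aurora A (Aurka), the centrosomal kinase, had 0.55, 3.21 and 3.91 in Myc tumors and -0.68, -0.16 and -0.51 in controls, and Incenp, the scaffold of the passenger complex, had 0.53, 2.77 and 3.21 in Myc tumors and -0.56, 0.12 and -0.35 in controls. Neither overlapped, with differences of 3.30 ± 0.48 (adjusted p = 1.31e-05) and 2.66 ± 0.40 (adjusted p = 2.2e-05). Aurora B (Aurkb) was not well above background in controls, with a measured difference of 2.71 ± 0.54, and was at least 5.84-fold higher on the signal of the sample channel alone. Plk1, the Polo kinase, averaged 2.25 ± 1.02 in Myc tumors and -0.33 ± 0.13 in controls (SD, n = 7 and 3), and Plk4, which starts centriole copying, averaged 1.10 ± 0.77 in Myc tumors and -0.09 ± 0.06 in controls.

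Of the 9 genes of the spindle checkpoint, the anaphase promoting complex (APC/C) and separase, 8 rose in Myc tumors. Cdc20, the activator of the APC/C, had 0.32, 4.29 and 5.03 in Myc tumors as lowest, median and highest, against -0.86, -0.05 and -0.36 in controls. The groups did not overlap (difference 4.05 ± 0.65, adjusted p = 4.57e-05). Cdca3, a ubiquitin ligase component that triggers mitotic entry, had 0.11, 3.21 and 3.66 in Myc tumors, against -0.36, -0.13 and -0.10 in controls, and Mad2l1, the checkpoint protein that binds CDC20, had -0.21, 2.22 and 2.72 in Myc tumors, against -0.31, -0.50 and -0.53 in controls. Both were above every control in every tumor, with differences of 2.88 ± 0.51 (adjusted p = 0.000128) and 2.30 ± 0.43 (adjusted p = 0.000208). Securin (Pttg1), the inhibitor of separase, was unlike the rest in level, below the reference pool on all 31 fitted arrays, with -2.18, -0.83 and -0.52 in Myc tumors against -2.56, -2.13 and -1.66 in controls. It still differed by 1.08 ± 0.38 (adjusted p = 0.0293), with overlapping groups, and 3 of the 10 fits that left out 1 array lost the call. Bub1 was one of 2 members not called (difference 0.28 ± 0.15, adjusted p = 0.145) by its brightest probe. A second, dimmer Bub1 probe, not well above background in any control, averaged 2.91 in Myc tumors and -0.12 in controls, so the probes of this checkpoint kinase disagree. The 3 Bub3 probes that passed the filter disagree too, since the brightest was higher in Myc tumors by 0.93 ± 0.20 and the next brightest averaged -0.10 in Myc tumors and 0.35 in controls. Over all roles, 26 members had more than 1 probe that passed the filter. Except for Bub1 and Kif23, every dimmer probe differed less between Myc tumors and controls than the brightest. The dimmer probes gave 0.24 for Cdk1, -0.01 for Kif11 and 0.52 and 1.39 for Cenpe, but 2.18 for Mad2l1 and 3.27 for Kif20a.

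Centromere and kinetochore genes rose in 6 of 7. Spc25, a subunit of the NDC80 complex that grips microtubules, had the smallest p of all members, with 0.54, 2.30 and 2.73 in Myc tumors, against -0.87, -1.11 and -1.40 in controls. No tumor came within 1 log2 unit of a control, and the difference was 3.08 ± 0.39 (adjusted p = 3.13e-06). The kinetochore motor Cenpe had 0.37, 4.05 and 4.29 in Myc tumors and -1.08, -0.01 and -0.36 in controls, and Nuf2, another subunit of the NDC80 complex, had 0.28, 2.67 and 3.00 in Myc tumors and -0.09, -0.14 and -0.13 in controls. In both, tumor 5 lay above the highest control and below the other 6 tumors, with differences of 4.01 ± 0.58 (adjusted p = 1.43e-05) and 2.36 ± 0.40 (adjusted p = 7.61e-05). Ndc80 itself, measured by a single probe, was the second member not called, with Myc tumors at 1.68, 0.20, 0.53, -0.60, -0.07, 0.97 and 1.40 and controls at -0.19, 0.08 and 0.10 (difference 0.59 ± 0.31, adjusted p = 0.141). Its tumors spread on both sides of the controls. On the scanner's own log ratio Ndc80 was called, at a difference of 1.87 (adjusted p = 0.0373).

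All 9 spindle motors and microtubule proteins and all 3 cytokinesis genes rose. Kif20a, the motor of the spindle midzone, had -0.05, 3.49 and 3.99 in Myc tumors as lowest, median and highest, against -0.47, -0.58 and -0.94 in controls (difference 3.69 ± 0.56, adjusted p = 2.27e-05). Prc1, which bundles midzone microtubules, had 0.43, 3.29 and 3.73 in Myc tumors and -0.34, -0.32 and -0.22 in controls, and the chromosome motor Kif4 had 0.69, 2.59 and 3.54 in Myc tumors and -0.06, -0.04 and -0.14 in controls. None of these 3 genes overlapped, and Prc1 and Kif4 differed by 3.11 ± 0.48 (adjusted p = 2.9e-05) and 2.63 ± 0.43 (adjusted p = 5.86e-05). Kif22, a chromokinesin, was the least steady in resting liver, with controls at 0.85, 0.10 and 1.76. Ect2, the exchange factor that activates RhoA at the cleavage furrow, had -0.16, 2.75 and 3.26 in Myc tumors and -0.90, -0.70 and -1.04 in controls, and its midzone partner Racgap1 had 0.50, 2.54 and 3.27 in Myc tumors and -0.04, 0.09 and -0.15 in controls. They differed without overlap by 3.34 ± 0.49 (adjusted p = 1.43e-05) and 2.36 ± 0.40 (adjusted p = 7.52e-05). The ring protein anillin (Anln) had -0.41, 0.69 and 2.17 in Myc tumors and -0.17, -0.13 and -0.26 in controls. It was not well above background in any control, overlapped them through tumor 5, and differed by 1.21 ± 0.32 as measured (adjusted p = 0.00495), or at least 1.98-fold on the signal of the sample channel alone.

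The 4 chromosome structure genes rose by 1.74 to 2.36. Ncapd2, a condensin subunit, had 0.14, 2.26 and 2.81 in Myc tumors and -0.24, -0.09 and -0.63 in controls, and Smc4, its ATPase partner, had 0.23, 1.73 and 2.15 in Myc tumors and -1.14, -0.69 and -0.45 in controls. A dimmer Ncapd2 probe, well above background in 7 Myc tumors and 2 controls, differed by only 0.20, and another by 1.76. Topoisomerase Top2a had 0.07, 2.40 and 3.33 in Myc tumors and -0.01, -0.04 and 0.04 in controls. The groups of these 3 genes did not overlap, and the differences were 2.36 ± 0.37 (adjusted p = 2.94e-05), 2.31 ± 0.33 (adjusted p = 1.32e-05) and 2.21 ± 0.44 (adjusted p = 0.000379). The factor Foxm1, which drives the late cell cycle genes, had 0.59, 2.34 and 2.73 in Myc tumors and 0.12, 0.05 and 0.12 in controls, and the proliferation antigen Mki67 had 0.85, 4.33 and 4.46 in Myc tumors and -0.61, -0.07 and -0.21 in controls. Foxm1 and Mki67 stood above every control even in tumor 5, with differences of 1.96 ± 0.33 (adjusted p = 6.17e-05) and 4.00 ± 0.60 (adjusted p = 2e-05).

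**Figure D3:**
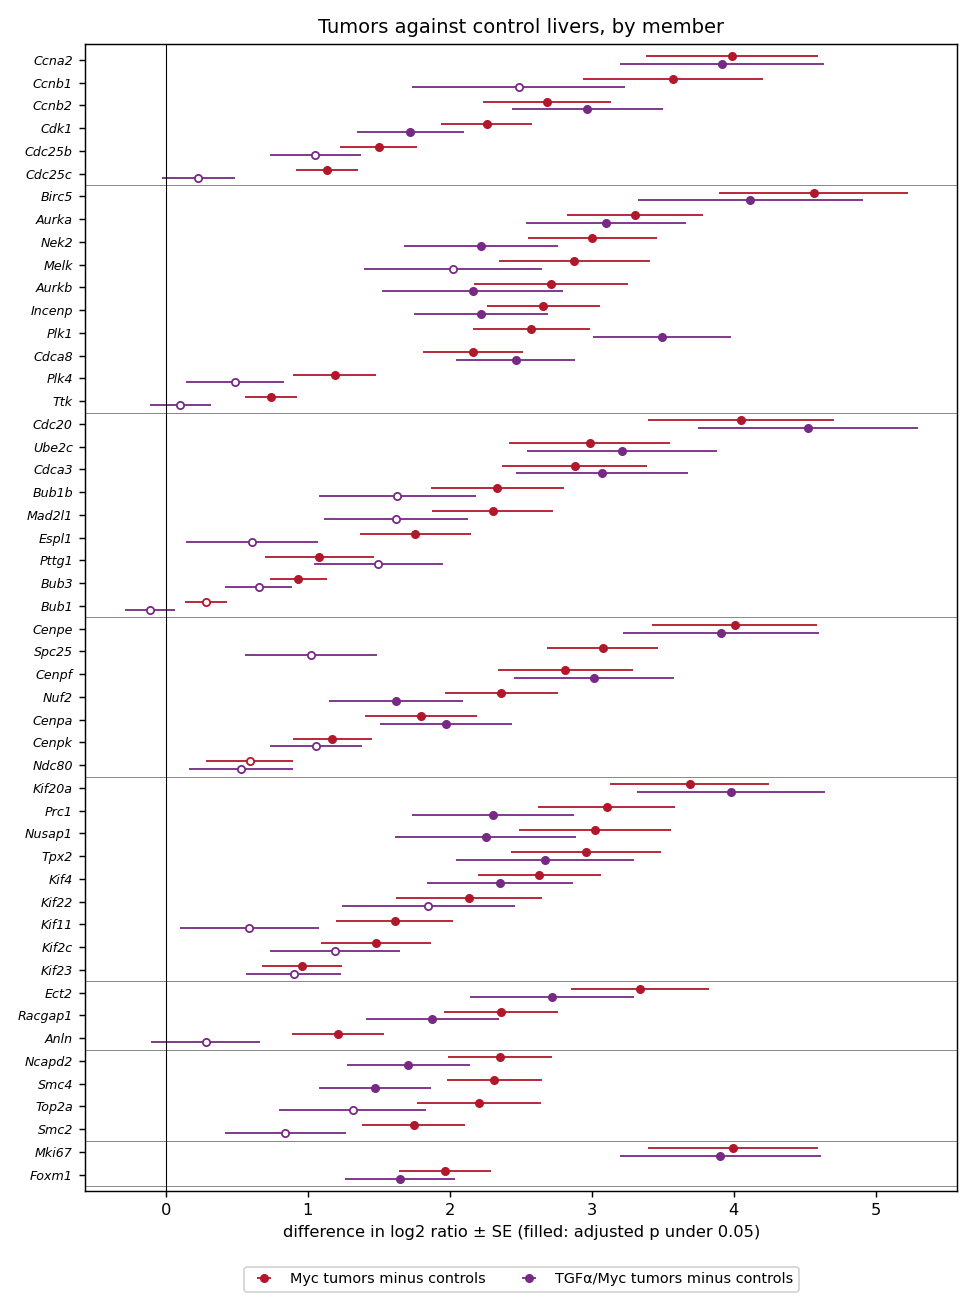
Difference in log2 ratio from control livers, with its SE, for each of the 50 genes by role, in Myc tumors (red) and TGFα/Myc tumors (purple). Filled points were called at adjusted p under 0.05. 48 genes are filled in red and 28 in purple, and for genes not well above background in controls the points are measured differences with no firm size.

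The tumors did not all order the genes alike. Leaving tumor 5 aside, Ttk lay at 1.09 to 1.48 in Myc tumors 1, 6 and 7 and at 0.50 to 0.52 in tumors 2, 3 and 4, and Anln at 1.41 to 2.17 and 0.64 to 0.69 in the same 2 sets. Kif23, Plk4 and Kif11 had their 3 highest values in tumors 1, 6 and 7 as well, while the condensin gene Smc2 had tumor 4 (1.69) above tumor 7 (1.64). These genes were picked after their values were seen. Cdc20 and Birc5 showed another order, lowest in tumor 1 after tumor 5 (2.43 for Cdc20 and 3.26 for Birc5), against 4.15 to 5.03 and 4.42 to 4.97 in the other 5 tumors. On the signal of the sample channel alone, another scale, tumor 1 was instead the highest of the 7 for Birc5 (15.14). For Cdc20 it lay above tumor 6 there (13.50 against 13.04). On that channel tumor 4 also lay above tumor 6 for Kif23 and above tumor 7 for Plk4. Ttk, Anln and Kif11 had their 3 highest values in tumors 1, 6 and 7 on that channel too. The other orders named here held only for the ratio to the reference pool. Tumor 1 was read on the first scanner and the others on the second, and the part of the scanner and of the reference channel was not tested.

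With the transgene off for 4 weeks, 47 of the 50 genes were lower than in Myc tumors, where 18.8% of all genes were called lower, and after 12 weeks 49 were, where 18.9% were. Anln, Bub1b, Kif11 and Cdc25c passed the filter only through tumors, where they are high. Their calls add nothing to these counts, or to later counts that set tumors against livers. The median differences over the 50 genes were -2.27 and -2.45. Spc25 had the smallest p at both times and fell to -1.46, -1.61 and -1.58 after 4 weeks and -1.0, -1.76 and -1.41 after 12 weeks, against a median of 2.30 in the tumors (differences -3.50 ± 0.39 and -3.34 ± 0.39, adjusted p = 1.1e-06 and 1.3e-06). For Spc25 every liver off the transgene lay below every tumor. Smc4 fell to -0.85, -0.81 and -0.60 and -1.17, -1.15 and -0.93, Incenp to -0.44, -0.28 and -0.18 and -0.80, -0.65 and -0.92, and Cdk1 to -0.40, -0.54 and -0.33 and -0.44, -0.47 and -0.31 at 4 and 12 weeks, all below 0, where every Myc tumor was above 0. At 4 weeks the genes not called were Bub1 (-0.17 ± 0.15, adjusted p = 0.397), Ndc80 (-0.54 ± 0.31, adjusted p = 0.181) and Pttg1 (-0.96 ± 0.38, adjusted p = 0.0538), and at 12 weeks Ndc80 alone (-0.70 ± 0.31, adjusted p = 0.0783). The 3 livers at 4 weeks shared a scan day with Myc tumor 1, and within it 49 of 50 genes were lower by at least 1 log2 unit. The median there was -2.58, against 0.01 over all genes. Markers moved too, and their part was not tested. At 4 weeks 8 of 11 hepatocyte genes (list median 1.44) and 6 of 8 endothelial genes (1.27) were higher. At 12 weeks 7 of 11 hepatocyte genes (1.42) were higher, and of 8 endothelial genes (0.88) 4 were higher and 1 lower. Of 7 erythroid genes 4 were lower at each time (-0.67 and -1.25), with 1 higher at 12 weeks. Of 8 stellate cell and fibroblast genes 2 were higher and 1 lower at 4 weeks (0.13), and 1 higher and 4 lower at 12 weeks (-1.08). Over all genes 3719 of 21839 were called higher at 4 weeks and 3645 of 21842 at 12 weeks. No liver at 12 weeks shared a day with a Myc tumor, and a fit with scan day as a block called 3 genes lower at 12 weeks, with a median of -2.60.

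Against controls, the livers off Myc showed no member called in either direction at 4 or at 12 weeks. At an unadjusted p under 0.05 there was none of 50 at either time. The fit shares 1 spread per gene over all groups, tumors included. For Ccna2, as an example, the SD was 1.50 in Myc tumors, 0.23 in controls and 0.15 in livers off Myc for 4 weeks. The tests between livers, here and below, therefore carry the scatter of tumors, and a lack of calls does not show equal levels. Under each of 18 alternatives the livers off Myc also had 0 members called at both times. The background was 0.00916% of all genes called at 4 weeks and 0.119% at 12 weeks. The median difference over the 50 genes was 0.11 at 4 weeks, with single genes between -0.69 and 1.00, and -0.02 at 12 weeks, between -0.84 and 0.67. Cdc20 gave the highest of these at 4 weeks, with 0.91, 0.32 and 0.51 in livers off Myc, against -0.86, -0.05 and -0.36 in controls (difference 1.00 ± 0.77, adjusted p = 0.985). All 3 livers lay above all controls for it, and at 12 weeks they stood at -1.53, -0.23 and -0.28, overlapping the controls. Kif22 gave the lowest at both times, with 0.48, 0.32 and -0.17 at 4 weeks and -0.43, -0.31 and 0.94 at 12 weeks, beside controls that themselves lay between 0.10 and 1.76.

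**Figure D4:**
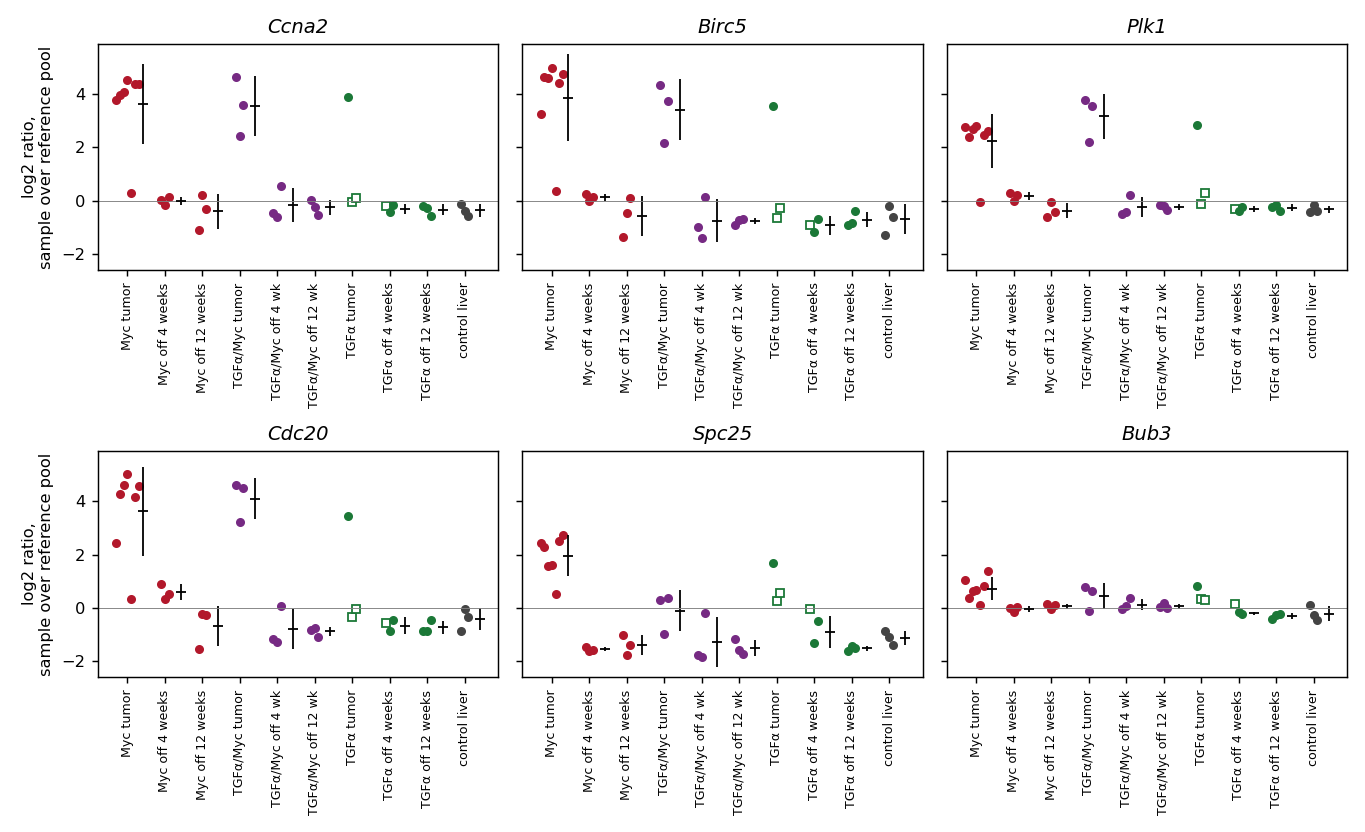
Log2 ratio (sample over reference pool) of 6 genes on each array by group, with the mean and SD of the fitted arrays as a black bar beside the points and the set-apart arrays as open squares. Ccna2, Birc5, Plk1 and Cdc20 are high in all tumors but Myc tumor 5 and TGFα tumors 2 and 3, Spc25 lies at -0.98 to 0.37 in TGFα/Myc tumors and at 0.54 to 2.73 in Myc tumors, and Bub3 moves little.

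In tumors with both transgenes 28 of the 50 genes were higher than in controls, where 2.90% of all genes were called higher, and none was lower. The median difference over the 50 was 1.86, and in 41 genes all 3 tumors lay above all 3 controls, where 9.75% of all genes did. The strongest by p was Plk1, with 3.76, 2.19 and 3.54 in TGFα/Myc tumors, against -0.42, -0.18 and -0.38 in controls (difference 3.50 ± 0.49, adjusted p = 0.000182). Kif20a had 3.96, 2.13 and 3.86 in TGFα/Myc tumors, against -0.47, -0.58 and -0.94 in controls (3.98 ± 0.66, adjusted p = 0.00101). Cdc20 had 4.61, 3.21 and 4.48 in TGFα/Myc tumors, against -0.86, -0.05 and -0.36 in controls, the widest gap of any member here (4.52 ± 0.77, adjusted p = 0.00124). Tumor 2 was the lowest in all 3 genes. Cenpe had 4.55, 1.99 and 3.74, Ccna2 4.65, 2.42 and 3.60, Birc5 4.35, 2.15 and 3.75 and Mki67 4.77, 2.11 and 3.94 in TGFα/Myc tumors 1, 2 and 3, all called (adjusted p = 0.00162, 0.00216, 0.00305 and 0.00199).

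By role, the TGFα/Myc tumors had 3 of 6 cyclin, CDK1 and phosphatase genes called, 7 of 10 kinase and passenger genes, 3 of 9 checkpoint and APC/C genes, 4 of 7 kinetochore genes, 5 of 9 motor and microtubule genes, 2 of 3 cytokinesis genes, 2 of 4 chromosome structure genes, and both Foxm1 and Mki67. Several of the 22 genes not called had values well off the controls but a wide spread, such as Ccnb1 at 3.06, 0.75 and 3.10 in TGFα/Myc tumors, against -0.15, -0.12 and -0.28 in controls (adjusted p = 0.053). Others were close to controls in all 3 tumors, on arrays where Cdc25c and Ttk were well above background in 0 of the 3 tumors and Anln in 1, so that their levels there are not firm. Cdc25c had 0.22, 0.08 and 0.27 in TGFα/Myc tumors, against -0.06, -0.11 and 0.05 in controls, and Ttk had 0.19, 0.09 and 0.19 in TGFα/Myc tumors, against -0.01, 0.06 and 0.12 in controls. Anln had 0.26, -0.08 and 0.09 in TGFα/Myc tumors, against -0.17, -0.13 and -0.26 in controls. TGFα/Myc tumor 2 was the lowest of its group for 49 of 50 genes, with a median of 0.57 against 2.43 and 2.20 in tumors 1 and 3. Leaving out tumor 1, 2 or 3 called 12, 39 or 22 genes. The fit shares 1 spread over all 10 groups. A fit of these 2 groups alone called 1 gene, a fit with scan day as a block called 5, and a background model fitted on all spots, flagged ones included, called 10, with medians of 1.86, 1.77 and 1.09.

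The genes were lower after dox in the mice with both transgenes too. At 4 weeks 31 of 50 were lower than in TGFα/Myc tumors (8.04% of all genes were called lower) and at 12 weeks 35 (6.08% of all genes were), with medians of -1.68 and -1.89. Plk1 fell to -0.48, -0.44 and 0.21 at 4 weeks and -0.16, -0.18 and -0.35 at 12 weeks (differences -3.41 ± 0.49 and -3.40 ± 0.49, adjusted p = 9.02e-05 and 0.000132). Cdca8, the passenger subunit borealin, fell to -0.75, -0.79 and 0.32 and -0.29, -0.39 and -0.46, against 3.06, 1.29 and 2.77 in the tumors (adjusted p = 0.000147 and 0.000264). Cdc20 fell to -1.15, -1.28 and 0.06 and -0.81, -0.75 and -1.08 (adjusted p = 0.000229 and 0.000286). In all 3 genes every liver after dox lay below every tumor. Replicate 3 at 4 weeks stood highest of its group for these 3 genes, and its median over the 50 was 0.22 against -0.33 and -0.36 in replicates 1 and 2. Without it 32 genes were called lower at 4 weeks, with a median of -1.93. With the background model fitted on all spots the counts were 16 at 4 weeks and 15 at 12 weeks. Replicate 3 was alone on its scan day, so the 4-week comparison could not be fitted with scan day as a block, and at 12 weeks that block left 0 of the 50 called by limma, where 746 of all genes were, with a median of -1.60.

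No member was called between livers off both transgenes and controls at 4 weeks (4.72% of all genes called) or at 12 weeks (0.0366%). The unadjusted p was under 0.05 for 1 gene at 4 weeks, Bub1 (-0.29, -0.78 and -0.34 off the transgenes and -0.33, 0.40 and 0.15 in controls, adjusted p = 0.0789), and for 0 at 12 weeks. Without replicate 3 at 4 weeks the count of members called by limma was 0 as well. The medians over the 50 genes were 0.05 and 0.00.

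The TGFα/Myc tumors were set against the Myc tumors directly. Of the 50 genes 5 were lower in them and none was higher. Over all genes larger shares were called, 26.3% in either direction and 13.9% lower. The clearest was Spc25, which was measured by a single probe. It stood at 0.31, -0.98 and 0.37 in TGFα/Myc tumors, against 0.54, 2.30 and 2.73 as lowest, median and highest in Myc tumors. Its groups did not overlap, the difference was -2.06 ± 0.39 (adjusted p = 0.000501), and it was the only member without overlap, where 7.95% of all genes lay wholly below. Cdc25c (-0.91 ± 0.22, adjusted p = 0.00334), Ttk (-0.64 ± 0.18, adjusted p = 0.0119), the separase gene Espl1 (-1.15 ± 0.39, adjusted p = 0.0323) and Anln (-0.93 ± 0.32, adjusted p = 0.0351) were the other 4. Cdc25c and Ttk were well above background in none of the 3 TGFα/Myc tumors, Anln in 1 and Espl1 in 2, so the sizes of these differences are not firm. Cdc25c and Anln passed the filter of 3 arrays only through Myc tumors, where they are high, so that their calls add nothing to the 5. Plk1 gave the highest difference in the other direction (0.92 ± 0.41, adjusted p = 0.102), with TGFα/Myc tumors at 3.76, 2.19 and 3.54 and Myc tumors at -0.03, 2.63 and 2.80. The count moved with the low arrays of both groups. It was 24 without Myc tumor 5, with a median of -0.73 over the 50 genes, and 3 without TGFα/Myc tumor 2, with a median of 0.06, against -0.44 with all, and it was 28 with the background model fitted on all spots. The shares of all genes above are those of the main fit, so these counts cannot be set against them. The 2 groups shared no scan day. Markers of other cells moved with this comparison, where 2719 of 21842 genes were called higher. In TGFα/Myc against Myc tumors 5 of 8 endothelial genes were higher and none lower (list median 1.37). Of 11 hepatocyte genes 5 were higher and none lower (0.88), and the part of these markers was not tested.

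The fall with the transgene off was compared between the 2 genotypes as an interaction. It was smaller in TGFα/Myc mice at 4 weeks for Spc25 (difference of the differences 2.34 ± 0.61, adjusted p = 0.00913) and Cdc25c (1.04 ± 0.33, adjusted p = 0.0325), where 18.8% of all genes differed in either direction, and at 12 weeks for Spc25 (1.94 ± 0.61, adjusted p = 0.0496), where 7.95% did. Spc25 started from lower tumors, as above, and ended at -1.76, -1.86 and -0.18 at 4 weeks in TGFα/Myc livers, against -1.46, -1.61 and -1.58 in Myc livers. Cdc25c was not well above background on any array of the livers off Myc for 4 weeks, of the TGFα/Myc tumors or of the livers off both transgenes for 4 weeks, so the size of its difference was not measured. Only Myc tumors had it well above background among the 4 groups. Cdc25c passed the filter only through those tumors, where it is high, so that its call adds nothing to the 4-week count. The 4-week count of 2 fell to 1 under 6 of 17 alternatives and in 6 of 16 fits that left out 1 array, and was 2 without replicate 3 of the TGFα/Myc livers. The median interaction over the 50 genes was 0.34 at 4 weeks and 0.41 at 12 weeks. Without Myc tumor 5 the counts were 9 and 5, with no share of all genes given for those fits. The 12-week call of Spc25 lay close to the threshold and was lost on the scanner's own log ratio, in the series table and with scan day or slide as a block, among others.

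For TGFα alone the tumors are given array by array with no test. The array labelled TGFα tumor 1 had a median of 2.50 over the 50 genes, 47 of them above a log2 ratio of 1 and 49 above every control, with Mki67 at 4.69, Ube2c at 3.99, Ccna2 at 3.88 and Cdc20 at 3.46. It is the array whose Myc probe was also high. Its highest correlation with any other array over all genes was 0.9001, the same value as that of Myc tumor 1. TGFα tumors 2 and 3 had medians of 0.03 and 0.16 against their own, unlike reference channel. Their sample channel alone ranked the 50 genes at a median percentile of 69 and 72.9 among all genes, where TGFα tumor 1 had 75.1 and controls had 35.6, 36.1 and 35.4, but the array of the same slide labelled TGFα off 4 weeks replicate 1 stood at 68.3 as well. On these arrays the hepatocyte genes ranked at 81.2, 52.8 and 56.2 in the sample channel, against 94.7 or more on the other 31, and intestine genes ranked at 79.1, 76.7 and 98.8, against 17.3 to 79.7 on the other 31. The defining liver genes were thus low on arrays labelled as liver, the part of other tissue in the mitotic percentiles was not tested, and no TGFα tumor level was drawn from them. Livers off TGFα had medians of -0.24 and -0.15 at 4 weeks (replicates 2 and 3) and -0.19, -0.19 and -0.36 at 12 weeks. No member was called against controls at 4 weeks, with 2 arrays (0.375% of all genes, 1 of 50 at an unadjusted p under 0.05), or at 12 weeks (0.0275%, 0 of 50), with median differences of -0.01 and -0.07.

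**Figure D5:**
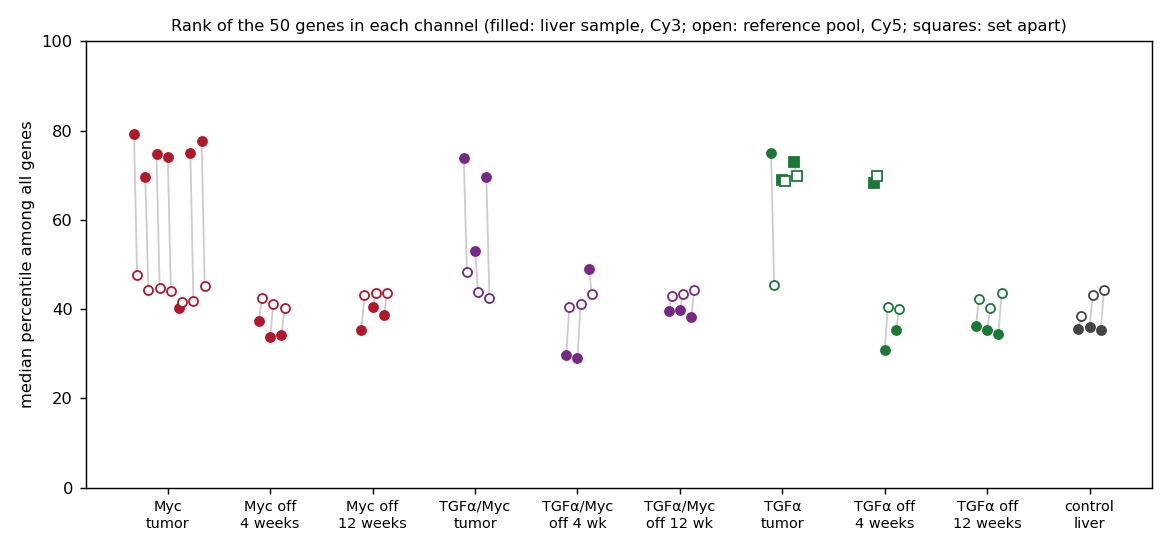
Median percentile of the 50 genes among all genes in the sample channel (Cy3, filled) and in the reference channel (Cy5, open) of each array, by group. The reference channel holds the genes at 38.4 to 48.4 on 31 arrays and at 68.7 to 69.8 on the 3 set apart (squares), and the sample channel of 10 of the 11 other tumors lies above 50.

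Other genes of the same pathway, in lists drawn up from textbook membership, moved in the same comparisons. The lists were chosen with earlier results of these data known, so their counts are description and not separate support. In Myc tumors against controls, where 19.7% of all genes were called higher and 17.2% lower, 24 of 34 other centromere and kinetochore genes were called higher and 0 lower (median 1.36), led by p by Cenpt (2.61 ± 0.36) and Cenph (3.10 ± 0.51). 7 of 11 other motor genes were higher, among them the dynein light chain Dynll1 (1.95 ± 0.24) and Kif3a (0.80 ± 0.13), and 13 of 20 other spindle and centrosome genes, among them Stmn1 (3.67 ± 0.52), which takes microtubules apart, and Cep55 (2.41 ± 0.38), which acts in abscission. 12 of 18 condensin and cohesin genes were higher, with sororin (Cdca5, 3.38 ± 0.49) and shugoshin (Sgo1, 3.56 ± 0.57) first, and 15 of 20 other entry and exit regulators, with Cdkn3 (2.84 ± 0.39) and Pkmyt1 (1.87 ± 0.26) first and 1 lower. The 12 APC/C subunits moved least, with 6 higher and a median of 0.55, led by Anapc5 (0.99 ± 0.13) and Cdc16 (0.80 ± 0.13). Of 23 DREAM and E2F factors 11 were higher and 5 lower, with the NF-Y subunit Nfyb lower (-1.45 ± 0.20) and the MuvB subunit Lin9 higher (1.25 ± 0.23). In TGFα/Myc tumors, where 2.90% of all genes were called higher, the counts called higher were 5 of 34, 2 of 11, 7 of 20, 5 of 18, 4 of 20, 1 of 12 and 2 of 23 in the same lists, taking the APC/C subunits and the factors last, with 1 kinetochore gene and 1 factor lower.

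Several lists of markers of the cells a liver or tumor sample can hold moved in Myc tumors as well, and their part in the results above was not tested. Of 11 hepatocyte plasma protein genes 8 were lower in Myc tumors than in controls, where 17.2% of all genes were, and the list's median on each array ran from -2.80 to -0.15 in Myc tumors, against -0.34 to -0.03 in controls. 4 of 8 endothelial genes were lower, with list medians of -2.03 to -0.78 in Myc tumors and -0.38 to -0.04 in controls. 4 of 7 erythroid genes were higher, where 19.7% of all genes were, with list medians of 0.51 to 2.27 in Myc tumors and -0.10 to 0.00 in controls. Of 14 leukocyte genes 4 were higher and 3 lower, with list medians of -0.34 to 0.39 in Myc tumors and 0.00 to 0.21 in controls. Of 8 stellate cell and fibroblast genes 3 were higher and 1 lower, with list medians of -0.40 to 2.09 in Myc tumors and -0.66 to -0.11 in controls. Of 7 biliary and progenitor genes 1 was higher and 1 lower (-0.69 to 1.08 in Myc tumors and -0.05 to 0.29 in controls). Of 8 intestine genes 3 were higher and 1 lower (0.03 to 0.94 in Myc tumors and -0.08 to 0.01 in controls). The last 4 lists went both ways and are short, so no change is read from their counts. Myc tumor 5, where the mitotic genes were low, had the hepatocyte list at -0.15, the erythroid list at 1.60, the biliary and progenitor list at 1.08, against -0.69 to -0.06 in the other 6 Myc tumors, and the stellate cell and fibroblast list at 1.32. In TGFα/Myc tumors 1 erythroid gene, Slc4a1, was higher and no other marker was called.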

How the data were processed

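Per the labels, total RNA was amplified and labelled for two-colour Agilent arrays, the sample in Cy3 and the reference pool in Cy5. The deposited intensity values are scanner output with no normalization between arrays, and the deposited log10 ratio in the same files is red over green, per the file headers. The deposited series table holds log2 values, as read from their range, whose centring and exact scale are unknown, and whose direction is that of Cy5 over Cy3. The submitters' processing notes name limma with no version.

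Here both channels were background corrected (normexp, offset 50) and normalized within arrays by loess, and genes were tested on log2(Cy3/Cy5) with limma 3.58.1, adjusting by Benjamini-Hochberg over 21842 genes at 0.05. The normexp parameters were fitted without spots flagged as outliers, a choice made after seeing the data, because spots with very high local background raised the 1st percentile of corrected Cy3 signal to 571 on Myc tumor 5 and 590 on TGFα/Myc tumor 3, against 59.3 and 52.2 without them. Control spots were left out, probes had to be well above background on at least 3 arrays, and each gene was read by its brightest probe. The fit held 31 arrays, without the 3 set apart. It was also run on simulated data with 1 spread per gene for all groups. That run cannot show how the fit behaves where tumors spread more than livers. The members and lists were chosen with earlier results of these data known. Genes named with all values are the 3 of each role with the smallest p in Myc tumors against controls, and further genes are named as extremes or exceptions. The labels call the samples biological replicates. Replicate numbers were not taken to pair samples. Same-numbered arrays of different groups correlated at a mean of 0.05 over all genes (from -0.42 to 0.67). Arrays with different numbers correlated at a mean of -0.02 (from -0.65 to 0.47). Means over mixed pairs cannot exclude that some samples are paired.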

Additional observations from a re-analysis of the deposited data

Results flagged for a closer look

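Myc tumor 5 stood apart from the other 6 Myc tumors in the median of the 50 genes (0.23), by a gap to its nearest neighbour that was large against the range of all 7. Of the genes named with all values, the same array stood apart below the others for Cdk1 (0.48), Ccna2 (0.27), Ccnb2 (0.33), Birc5 (0.38), Incenp (0.53), Mad2l1 (-0.21), Cenpe (0.37), Nuf2 (0.28), Kif20a (-0.048), Prc1 (0.43), Ect2 (-0.16), Racgap1 (0.50), Ncapd2 (0.14), Foxm1 (0.59) and Mki67 (0.85), all log2 ratios to the reference pool. Over all 50 genes 22 were of this kind, every one at tumor 5, and chance alone gives about 1 in 20 groups. The genes share the array and are not independent. The Myc probe with the highest ratios in Myc tumors stood at 1.71 in it, against 5.16 to 6.25 in Myc tumors 2, 3, 4, 6 and 7 and 2.50 in tumor 1, where it was saturated. The other 2 Myc probes stood at 0.44 and 0.86 in tumor 5, against 2.69 to 4.66 and -0.98 to -0.32 in the other 6.

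The fall from tumor to liver with the transgene off differed between the genotypes by the test of the difference itself for Spc25 at 4 weeks (2.34) and at 12 weeks (1.94) and for Cdc25c at 4 weeks (1.04), in log2 units, TGFα/Myc less Myc. Cdc25c was not well above background on any array of 3 of the 4 groups behind that value, so its size was not measured, and its call was kept under 9 of 16 alternatives and in 10 of 16 fits that left out 1 array. It passed the filter only through Myc tumors, where it is high, so that its call adds nothing here. Over all genes 18.8% differed in either direction at 4 weeks and 7.95% at 12 weeks, larger shares than among the mitotic genes. The 12-week call of Spc25 (limma, adjusted p = 0.0496) was lost under 11 of 18 alternatives and in 11 of 16 fits that left out 1 array.

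On the 3 arrays left out of the comparisons, the sample channel ranked the 50 genes at a median percentile of 69 in TGFα tumor 2, 72.9 in TGFα tumor 3 and 68.3 on the array labelled TGFα off 4 weeks replicate 1, against 35.4 to 36.1 in controls. Their reference channel stood at 68.7 to 69.8, where that of controls stood at 38.4 to 44.3. Intestine genes ranked at 79.1, 76.7 and 98.8 in the sample channel and at 99.4 to 99.6 in the reference channel of these arrays, against 20.4 to 24.1 and 27.2 to 28.7 in controls, and their part was not tested.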

How the results depend on the processing

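The counts of genes called in Myc tumors against controls (48) and in livers off Myc for 4 weeks against Myc tumors (47) ranged from 37 to 49 and from 41 to 49 under 18 alternatives, and from 47 to 49 and 47 to 48 with 1 array left out. At 12 weeks (49) scan day as a block gave 3 and the other alternatives 38 to 50, with 45 to 50 when 1 array was left out. For TGFα/Myc tumors against controls (28) median centring gave 12, all 34 arrays 17, only the groups compared 1, scan day as a block 5 and the background model fitted on all spots 10, with 12 to 39 when 1 array was left out. For livers off both transgenes at 4 weeks against their tumors (31) only the groups compared gave 5, slide as a random block 20 and the all-spots model 16 (19 to 40 with 1 array left out). At 12 weeks (35) median centring gave 23, only the groups compared 16, slide 16, scan day 0 and the all-spots model 15 (18 to 40). For TGFα/Myc against Myc tumors (5) the scanner's log ratio, the series table and only the groups compared gave 1, the half-of-arrays filter 2, scan day 2, median centring 17, leaving out Myc tumor 5 and TGFα/Myc tumor 3 24, and the all-spots model 28 (3 to 24). Livers off both transgenes at 4 weeks against controls (0) gave 1 in the series table, without those 2 tumors and under the all-spots model (0 to 1, with 1 only without control 1), and livers off TGFα at 12 weeks gave 1 in the series table (0 to 0). The other comparisons of livers with controls gave 0 to 0 with 1 array left out. The difference in response at 4 weeks (2) gave 1 on the scanner's log ratio, with no background subtraction, in the sample channel alone, with the half-of-arrays filter, with only the groups compared and with probes averaged, 6 with median centring and 12 without the 2 tumors (1 to 9). At 12 weeks (1) it gave 2 with median centring, 8 without the 2 tumors, and 0 on the scanner's log ratio, with no background subtraction, in the series table, in the sample channel alone, with no dim filter, with all 34 arrays, with only the groups compared, with slide or scan day as a block, with probes averaged and under the all-spots model (0 to 5). The replicate block, where numbers are not known to pair the samples, gave 13 for TGFα/Myc against Myc tumors, 5 and 3 for the responses, and 49, 49, 50, 38, 40 and 41 for the first 6 counts above. The cause of these changes was not tested, and the shares of all genes given beside the counts are those of the main fit. Among single genes with all values given, 10 of 413 alternatives in Myc tumors against controls lost the call and none turned its direction. In livers off Myc for 12 weeks against Myc tumors 1 alternative turned Nuf2 (-2.30), to 9.57. Scan day as a block could not be fitted for the 4-week comparisons of TGFα/Myc and TGFα livers or the 4-week response. The all-spots model was added after seeing the data. Low signal in resting liver limits the depth: 30 to 44 of the 50 genes were well above background in controls.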
